A study of Saccharomyces cerevisiae with 6 samples.

Results

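The alcohol dehydrogenase genes ADH1 to ADH7 of budding yeast were followed in 3 strains that differ in whether, and which, oxidase gene their plasmid carries. The members were the 7 probe sets that the array's annotation assigns to these genes, 1 for each gene, out of 5498 S. cerevisiae probe sets (5449 genes) that could be tested. Messenger RNA came from chemostat cultures of the laboratory strain CEN.PK113-7D on minimal medium with 10 g/L glucose as the only carbon source. The titles place every culture at the critical dilution rate, the growth rate at which overflow of glucose carbon to ethanol sets in. They give no number for this rate, and its value may differ from strain to strain. How far such a difference enters the strain comparisons was not tested. The AOX strain carried the plasmid pYX212-AOX, for an alternative oxidase, an enzyme known to pass electrons to oxygen in mitochondria. The NOX strain carried pYX212-NOX, for an NADH oxidase, an enzyme known to oxidise NADH in the cytosol. The control strain carried the same plasmid, pYX212, without either gene, so that all 3 strains share the background strain and the vector. Each strain was measured on 2 Affymetrix Yeast Genome 2.0 arrays, 6 in all, and this number limits the precision of every value. Neither transgene was identified among the named probe sets, so their expression is not reported here. The labels do not say whether the 2 arrays of a strain came from separate cultures, and p-values measure only the spread between these arrays, which may be technical.

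In fermenting yeast, pyruvate is decarboxylated to acetaldehyde, and alcohol dehydrogenase reduces acetaldehyde to ethanol with NADH, which returns NAD+ to glycolysis. The family divides this work. Adh1 is the main ethanol-forming enzyme of the cytosol, Adh2 is a glucose-repressed isozyme that mainly oxidises ethanol, and Adh3 lies in the mitochondrial matrix, where it takes part in an ethanol and acetaldehyde shuttle for NADH. Adh5 is a minor isozyme, Adh4 belongs to an unrelated enzyme class and is known to be induced when zinc is short, and Adh6 and Adh7 use NADPH and act on a broad range of alcohols and aldehydes. The series concerns NADH oxidation and overflow metabolism, and the comparisons below ask whether the genes for these enzymes differed between the strains.

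Of the 7 genes, ADH2 was the one called in each of the 3 comparisons, and no other member was called by limma in any of them (at an unadjusted p below 0.05, ADH6 was lower in AOX than in NOX and in control). At that unadjusted threshold, 22.8% of all probe sets passed in AOX against NOX and 13.7% in AOX against control, in either direction. ADH2 was higher in NOX than in control and lower in AOX than in control, so that the 2 oxidase strains lay on opposite sides of the control. ADH1, ADH3, ADH4 and ADH5 differed by less than 0.3 on the log2 scale in every comparison, and ADH6 was lower in AOX by about that amount without passing the test. ADH7 was not above background on any array.

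The arrays were similar overall. The S. cerevisiae probe sets had median deposited intensities of 511 to 543, and 94.7% to 96.9% of these probe sets exceeded the 95th percentile of 1747 probe sets for another organism, used as background. That percentile lay between 5.64 and 5.79 on the normalized log2 scale. The arrays of a strain differed unevenly: over all tested probe sets, the SD of the difference between replicates 1 and 2 was 0.14 in AOX, 0.20 in NOX and 0.05 in control. NOX replicate 1 also stood apart in its hybridisation controls, which averaged 11.09 in log2 units there and 9.51 to 9.96 elsewhere. Levels below are log2(intensity + 16) after quantile normalization unless called deposited intensities. A difference in log2 units on this scale understates the change of dim genes. Probe sets differ in how well they bind, so levels are compared between strains within a gene and not between genes.

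**Figure D1:**
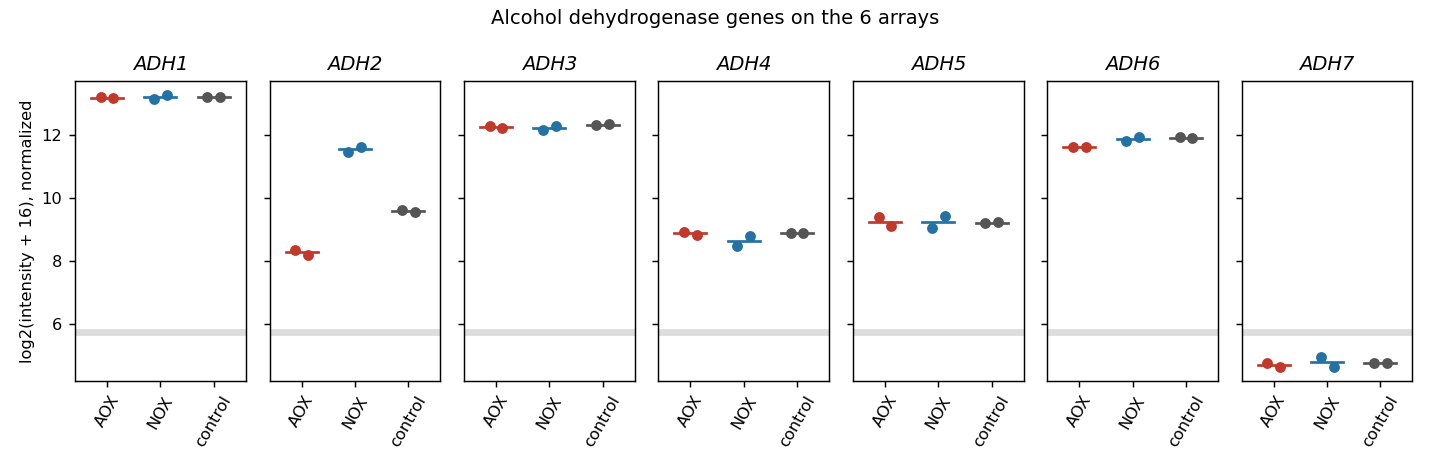
Normalized log2(intensity + 16) of the 7 alcohol dehydrogenase genes, with 1 point for each array, the strains on the horizontal axis and a line at the mean of each strain. The grey band spans the background percentile of the 6 arrays (5.64 to 5.79). ADH2 separates the 3 strains, with AOX at 8.27, NOX at 11.56 and control at 9.58 on average, while ADH7 lies under the band throughout.

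The ethanol-forming isozyme was steady. ADH1 had deposited intensities of 9385 and 9231 in AOX, 9105 and 10058 in NOX, and 9623 and 9635 in control. The values of the control lay inside the range of NOX and above both of AOX, and after normalization every pair of strains overlapped. Its log2 change was 0.02 in NOX against control (SE 0.06, 95% interval -0.13 to 0.17, limma adjusted p = 0.883). For AOX and control it was -0.02 (SE 0.06, 95% interval -0.17 to 0.13, limma adjusted p = 0.947). Between AOX and NOX it was -0.03 (95% interval -0.18 to 0.12, limma adjusted p = 0.782). These intervals correspond to levels between 0.881 and 1.12 times those of the other strain. The probe set was brighter than 99.1% to 99.6% of those tested on every array. The highest deposited intensity of an array lay between 14205 and 15138. Whether the brightness of ADH1 held down its measured change was not tested.

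ADH2 encodes the isozyme that is repressed by glucose and oxidises ethanol. Its deposited intensities were 311 and 277 in AOX, 2652 and 3248 in NOX, and 765 and 743 in control. No value of a strain overlapped with those of another, NOX being high, AOX low and control between them. Normalized levels averaged 8.27 ± 0.12 in AOX, 11.56 ± 0.12 in NOX and 9.58 ± 0.04 in control (SD, n = 2 each).

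In NOX against control, ADH2 rose by 1.98 (SE 0.08, 95% interval 1.77 to 2.19, a 3.93-fold difference; limma with Benjamini-Hochberg adjustment over all 5498 probe sets, adjusted p = 0.000569). It was 1 of 7 family members called, where 3.71% of all probe sets were called. Only 2 of the 5498 probe sets differed by more in size. ADH2 fell in AOX against control, with a log2 change of -1.31 (SE 0.08, 95% interval -1.52 to -1.10, 2.48-fold lower; limma adjusted p = 0.00121). Again it was 1 of 7 members, against 3.58% of all probe sets, and it ranked 19 by size. In AOX against NOX the log2 change was -3.29 (SE 0.08, 95% interval -3.50 to -3.08, 9.76-fold lower in AOX; limma adjusted p = 3.68e-05). Here ADH2 ranked 4 by size and was 1 of 7 members called, beside 8.38% of all probe sets. The comparisons with control share the 2 control arrays, while that of AOX with NOX does not use them other than for the pooled spread.

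ADH2 was called under each of the 16 alternative settings tried in each comparison, including those that left out 1 array. Fits without an array of the strain not compared repeat the fit of only the arrays compared. The 16 are therefore not all separate checks. In NOX against control its log2 change then ranged from 1.89 to 2.06 (adjusted p from 8.48e-05 to 0.0129). It ranged from -1.39 to -1.19 in AOX against control (adjusted p up to 0.0246), and in AOX against NOX from -3.37 to -3.10 (adjusted p up to 0.00234).

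**Figure D2:**
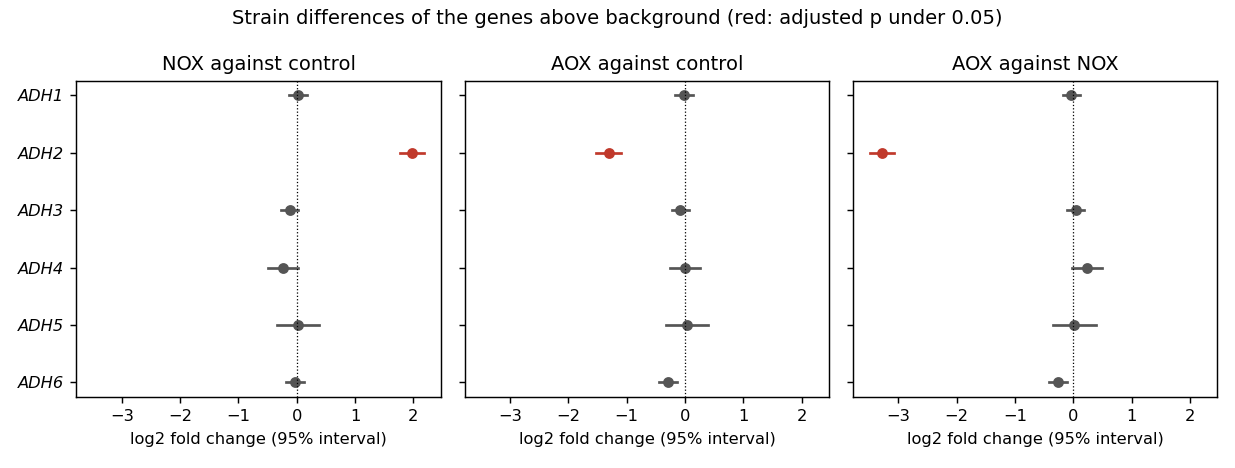
Log2 fold changes of the 6 genes above background in the 3 comparisons, with limma's 95% intervals as bars and the first-named strain over the second. Red marks an adjusted p below 0.05, which ADH2 alone reached, at 1.98, -1.31 and -3.29. The intervals of ADH6 lie below 0 in both comparisons that involve AOX, and those of ADH1, ADH3, ADH4 and ADH5 include 0.

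ADH3, the mitochondrial isozyme, had deposited intensities of 5075 and 4832 in AOX, 4382 and 5022 in NOX, and 5157 and 5225 in control. Both oxidase strains lay below the control on every array, while AOX and NOX overlapped. The log2 change was -0.12 in NOX against control (SE 0.06, 95% interval -0.27 to 0.03, limma adjusted p = 0.301). AOX against control gave -0.08 (SE 0.06, 95% interval -0.23 to 0.07, limma adjusted p = 0.638). With the error of this gene, a log2 change of about 0.32 in NOX or 0.33 in AOX would have been needed for a call against control. NOX against control was -0.06 without NOX replicate 1 (limma adjusted p = 0.476) and -0.18 without NOX replicate 2 (0.0431). That last fit keeps of NOX only the array that stood apart in its hybridisation controls, and it called 26.4% of all probe sets.

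Strains that do not overlap are common in these data. In each comparison 3 of the 7 members had arrays that did not overlap between the strains, while 55.5% of all tested probe sets did so in NOX against control, 58.2% in AOX against control and 46.2% in AOX against NOX. A lack of overlap with 2 arrays a strain is therefore not a result about the family.

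ADH4, the gene of the zinc-responsive isozyme, had deposited intensities of 468 and 437 in AOX, 333 and 442 in NOX, and 453 and 456 in control. NOX replicate 1 was the low array. The log2 change in NOX against control was -0.23 (SE 0.11, 95% interval -0.50 to 0.03, limma adjusted p = 0.261). For AOX against control it was -0.01 (SE 0.11, 95% interval -0.27 to 0.26, limma adjusted p = 0.989). AOX against NOX gave 0.23 (SE 0.11, 95% interval -0.03 to 0.49, limma adjusted p = 0.27). A single array decided the size of the NOX value: it was -0.08 without NOX replicate 1 and -0.39 without NOX replicate 2, where the limma adjusted p was 0.0176 and 26.4% of all probe sets were called. AOX against NOX was likewise 0.07 without NOX replicate 1 and 0.38 without NOX replicate 2 (limma adjusted p = 0.0157, with 26.7% of all probe sets called).

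ADH5, the minor isozyme, varied more between replicates than between strains. Its deposited intensities were 658 and 537 in AOX, 500 and 687 in NOX, and 571 and 586 in control, so that both control arrays lay inside the ranges of AOX and NOX. The strain means spanned 0.03 on the log2 scale, while the 2 NOX arrays differed by 0.39. The log2 changes were 0.02 in NOX against control (95% interval -0.35 to 0.38) and 0.03 in AOX against control (95% interval -0.33 to 0.40), with limma adjusted p of 0.952 and 0.953. Those intervals are the widest of the family, and a log2 change of about 0.80 in NOX would have been needed for a call.

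Of the NADPH-dependent enzymes, ADH6 came nearest to a second call. It had deposited intensities of 3272 and 3163 in AOX, 3416 and 4070 in NOX, and 3892 and 3868 in control. Both AOX arrays were the lowest of the 6, and NOX and control overlapped. In AOX against control the log2 change was -0.29 (SE 0.06, 95% interval -0.45 to -0.14, 1.23-fold lower; unadjusted p = 0.00366 and adjusted p = 0.0824 by limma). AOX against NOX gave -0.26 (SE 0.06, 95% interval -0.42 to -0.11, limma adjusted p = 0.0638), and NOX against control -0.03 (95% interval -0.19 to 0.12, limma adjusted p = 0.798).

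Whether ADH6 passed depended on the settings, while its size in AOX against control stayed between -0.31 and -0.26 in all 16 alternatives. It passed in 4 of those. These were the fit of only the AOX and control arrays and the fits without NOX replicate 1 or 2 (limma adjusted p = 0.017 in each), in which the spread of NOX does not enter, and the fit with a variance trend and robust priors (0.0474). In AOX against NOX it passed in 5 of 16, with a log2 change of -0.33 without NOX replicate 1 and -0.19 without NOX replicate 2. The highest adjusted p among the alternatives was 0.675 in AOX against control and 0.258 in AOX against NOX.

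ADH7 had deposited intensities of 11.5 and 8.25 in AOX, 13.0 and 8.62 in NOX, and 11.1 and 11.3 in control. All 6 values were under the background percentile of their array, which lay between 27.4 and 43.9 in deposited intensity. No fold change is given for it, and a difference between the strains was not detectable. The other 6 genes were above the percentile on all arrays.

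Within NOX, replicate 1 was below replicate 2 for 6 of the 7 genes on the normalized scale, ADH7 being the exception. Over all tested probe sets the share was 47.9%. The gaps of these 6 ran from -0.13 for ADH3 and ADH1 to -0.39 for ADH5, against a median size of 0.12 over all probe sets. For ADH2 the gap was -0.17, small beside its difference from the control. In control the 7 genes differed between replicates by at most 0.05 in either direction.

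ADH1, ADH2, ADH3 and ADH5 belong to 1 group of closely related sequences. The 7 probe sets all carry the plain suffix that the array's maker uses where probes were designed to match 1 transcript, but probe sequences were not used here, and some binding of related transcripts was not tested.

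The genes nearest to ADH2 were found by the root mean square difference between mean-centred log2 values over the 6 arrays, which weighs the size of a change and its direction. RGI2, a gene induced in respiratory growth, was the nearest at 0.11, against a median of 1.36 over all probe sets. ATO3, a membrane protein that exports ammonium, followed at 0.34, then FDH1, a formate dehydrogenase, at 0.64, ICL2, the mitochondrial methylisocitrate lyase, at 0.67 and PUT1, the proline oxidase, at 0.67. RGI2 had normalized levels of 8.16 and 8.12 in AOX, 11.30 and 11.21 in NOX, and 9.39 and 9.41 in control, the same order of strains as ADH2. FDH1 differs in that it was not above background on the control arrays and on 1 AOX array, so that its nearness rests on NOX. In all, 14 probe sets (0.255% of those tested) were called in the directions of ADH2 in all 3 comparisons, ADH2 included. With 6 arrays of 3 strains these distances describe the strain pattern only.

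**Figure D3:**
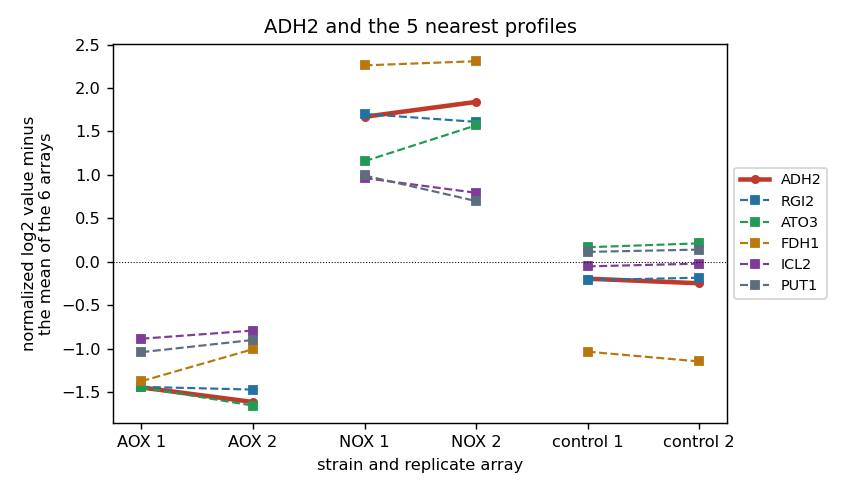
Normalized log2 values of ADH2 and the 5 nearest genes on each array, each less the mean of its 6 arrays, with strain and replicate on the horizontal axis. RGI2 follows ADH2 most closely (root mean square difference 0.11), and FDH1 departs from it in control.

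ADH2 is known to be switched on by the zinc finger activator Adr1 together with Cat8, both downstream of the kinase Snf1, when glucose is scarce. The other reported Adr1 targets listed here are 15 genes, among them genes of acetate and fatty acid use but also RGI2, ATO3, ICL2 and GIP2, chosen with earlier results of these data known, so their direction is no independent evidence. In NOX against control, 8 of 15 were called higher and none lower by limma (13 and 0 at an unadjusted p below 0.05), where 2.8% and 0.909% of all probe sets were. At that unadjusted threshold, 22.3% of all probe sets passed in either direction. The median log2 change of the list was 0.43, against 0.00 over all probe sets. RGI2 rose by 1.85, ATO3 by 1.17, ICL2 by 0.92, the acetate transporter gene ADY2 by 0.85, ACS1, an acetyl-CoA synthetase, by 0.76, GIP2 by 0.61, the peroxisomal transporter gene PXA1 by 0.59 and ALD4, the mitochondrial aldehyde dehydrogenase, by 0.40. Most of these calls did not hold when a control array was left out, in fits that called far fewer of all probe sets.

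In AOX against control, 8 of the 15 Adr1 targets were called lower and none higher (13 and 2 at an unadjusted p below 0.05), beside 1.04% and 2.55% of all probe sets. At that unadjusted threshold, 13.7% of all probe sets passed in either direction. The median of the list was -0.57, against 0.00 over all probe sets. ATO3 changed by -1.74, RGI2 by -1.26, the peroxisomal catalase gene CTA1 by -1.06, the beta-oxidation genes POX1 and FOX2 by -0.86 and -0.77, ICL2 by -0.80, PXA1 by -0.63 and the peroxisome division gene PEX11 by -0.27. Fewer of the 15 were called lower when a control array was left out, in fits that also called far fewer of all probe sets. With only the arrays of AOX and control, 12 were lower, where 6.62% of all probe sets were called in either direction. Between AOX and NOX, 12 of 15 were lower in AOX and none higher, with a median of -1.03 (0.01 over all probe sets), where 4.38% and 4% of all probe sets were called. The 3 that did not pass were GIP2 at -0.31, GUT1, the glycerol kinase, at -0.11 and POT1, the thiolase of beta-oxidation, at -0.51.

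The regulators were compared at the level of messenger RNA. The 17 genes listed as regulators of ADH2 include those for Adr1, Cat8, the Snf1 kinase complex and proteins that act on it. Of these 17, limma called none in NOX against control (1 higher and 2 lower at an unadjusted p below 0.05). It called none in AOX against control either (1 higher and 1 lower unadjusted). With 3.71% and 3.58% of all probe sets called, a count of 0 of 17 is near that share and is not a result about the regulators. Unadjusted, 22.3% and 13.7% of all probe sets passed in either direction, so the unadjusted counts are no such result either. ADR1 had normalized levels of 9.77 and 9.84 in AOX, 10.08 and 10.15 in NOX, and 10.09 and 10.11 in control. Both AOX arrays were the low ones. Between AOX and NOX, ADR1 was the 1 of 17 called (8.38% of all probe sets were), at -0.30 (SE 0.05, limma adjusted p = 0.0272). In AOX against control ADR1 was at -0.29 (limma adjusted p = 0.0535). A count of 1 of 17 does not exceed the share of 8.38% and is likewise not a result about the regulators. This ADR1 call between AOX and NOX was lost with only the arrays of these strains, where 3.67% of all probe sets were called. On the deposited values without quantile normalization it was lost too, where 7.71% were called. It also did not hold when an AOX array was left out, in fits that called fewer of all probe sets. Without NOX replicate 2, 2 regulators were higher and 2 lower in NOX against control, and likewise in AOX against NOX, in fits that called 26.4% and 26.7% of all probe sets. In AOX against control 1 regulator was called lower with only the arrays of both strains, where 6.62% of all probe sets were called. The same count came with quantile normalization (3.71%) or median scaling (3.87%) over S. cerevisiae probe sets. A pseudocount of 64 (3.66%) and the variance trend (3.58%) gave it too. A count of 1 of 17 is near these shares and is not a result about the regulators. CAT8 stood at 0.18 in NOX against control and at -0.07 in AOX against control, neither past the test. These are levels of transcripts, and the activity of the proteins was not measured.

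**Figure D4:**
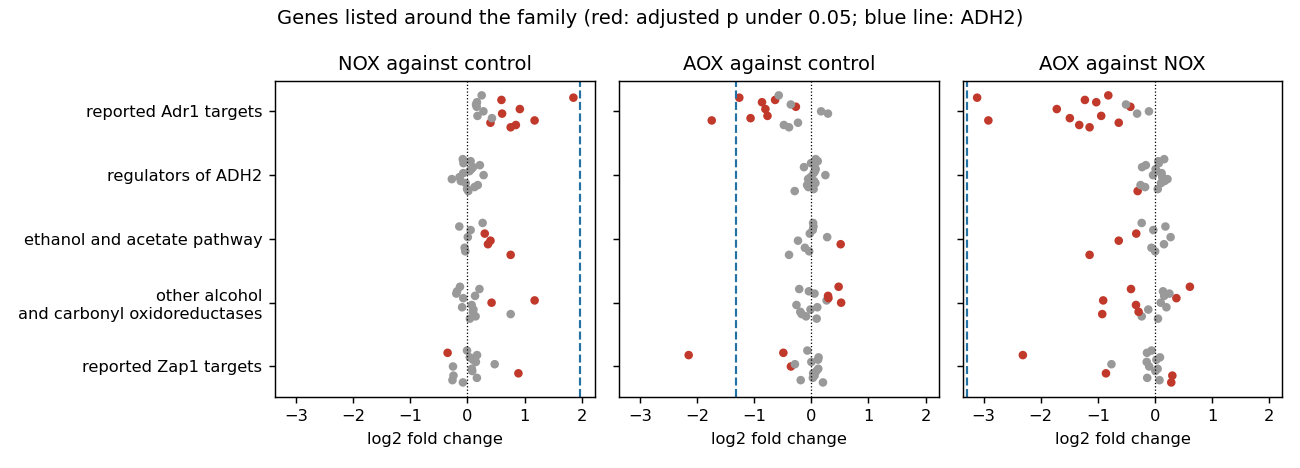
Log2 fold changes of the genes in the 5 lists set around the family, with 1 point per gene, in the 3 comparisons. Red points passed an adjusted p of 0.05 and the dashed blue line marks ADH2. The Adr1 targets lie on the side of ADH2 in NOX against control and, in AOX against NOX, all 15 lie below 0, while the regulators lie between -0.30 and 0.28.

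The steps before and after alcohol dehydrogenase were covered by 10 genes of pyruvate decarboxylase, aldehyde dehydrogenase and acetyl-CoA synthetase. PDC1, the main pyruvate decarboxylase, which makes the acetaldehyde that Adh1 reduces, stood at 0.06 in NOX against control and 0.03 in AOX against control, neither past the test. In NOX against control, 4 of the 10 genes rose and none fell, where 2.8% and 0.909% of all probe sets did: ACS1 by 0.76, ALD4 by 0.40, the stress-induced ALD3 by 0.36 and the cytosolic ALD6 by 0.30 (at an unadjusted p below 0.05, 5 were higher and 1 lower). At that unadjusted threshold, 22.3% of all probe sets passed in either direction. ALD4 had normalized levels of 13.27 and 13.26 in NOX against 12.86 and 12.87 in control. In AOX against control 1 of the 10 was called, ALD3, higher by 0.52 (2.55% of all probe sets were called higher), and ACS1 stood at -0.39 (limma adjusted p = 0.0874). Between AOX and NOX, ACS1 (-1.14), ALD4 (-0.63) and ALD6 (-0.33) were lower in AOX, 3 of 10 where 4.38% of all probe sets were. The calls against control did not hold when a control array was left out, in fits that called far fewer of all probe sets. ALD3 also lost its call in AOX without either AOX replicate, again in fits that called fewer of all probe sets. With only the arrays of the 2 strains compared, 2 genes rose in NOX against control, where 2.02% of all probe sets were called in either direction. The same kind of fit gave 2 lower genes in AOX against control (6.62%). With the replicate number as a block in the fit, 1 gene rose in NOX against control, where 1.44% of all probe sets were called.

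Other alcohol and carbonyl oxidoreductases were measured for 15 of 18 listed genes. SFA1, the dehydrogenase of glutathione-bound formaldehyde, which also acts on long-chain alcohols, stood at -0.20 in NOX and 0.06 in AOX against control, neither past the test. In NOX, GCY1, a glycerol dehydrogenase, rose by 1.18 and BDH2, a relative of butanediol dehydrogenase, by 0.42. In AOX, BDH2 rose by 0.52, the aldo-keto reductase genes YPR1 and GRE3 by 0.48 and 0.29, and GRE2, a reductase of methylglyoxal, by 0.30. Thus 2 of 15 were higher in NOX and 4 of 15 in AOX, and none was lower (1 and 3 lower at an unadjusted p below 0.05). Unadjusted, 22.3% of all probe sets passed in NOX and 13.7% in AOX, in either direction. Over all probe sets, 2.8% were called higher and 0.909% lower in NOX, and 2.55% and 1.04% in AOX, so that the absence of lower calls is not a result about the list. Between AOX and NOX, 2 were higher in AOX (YPR1 by 0.61 and GRE2 by 0.37) and 5 were lower, where 4% and 4.38% of all probe sets were. The lower ones were GCY1 (-0.91), XYL2, the xylitol dehydrogenase (-0.42), BDH1, the butanediol dehydrogenase (-0.33), AAD4 (-0.29) and AAD3. AAD3 was not above background in AOX and at least 1.23-fold lower there than in NOX. Its family has near-identical members, so the AAD values are uncertain. The calls against control did not hold when a control array was left out, in fits that called far fewer of all probe sets. Most of the higher calls in AOX against control did not hold without either AOX replicate. Most of the lower calls between AOX and NOX were lost there too, and these fits also called fewer of all probe sets. With only the arrays of the 2 strains compared, 1 gene was higher in NOX against control, where 2.02% of all probe sets were called in either direction. The same kind of fit gave 3 lower genes in AOX against control (6.62%), and 1 higher and 1 lower between AOX and NOX (3.67%). With the replicate number as a block in the fit, 1 gene was higher in NOX against control, where 1.44% of all probe sets were called.

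ADH4 is known to be induced by the zinc-responsive activator Zap1 when zinc is short, while ADH1 and ADH3 are known to be turned down. Among 15 other reported Zap1 targets, ZRT1, the high-affinity zinc transporter, had normalized levels of 7.80 and 7.76 in AOX, 9.99 and 10.20 in NOX, and 9.94 and 9.92 in control. AOX was low on both arrays, and its log2 change against control was -2.14 (SE 0.08, limma adjusted p = 0.000229). ZRT2, the low-affinity transporter, at -0.49 and ZAP1 itself at -0.36 were also lower in AOX than in control, so that 3 of 15 were lower and none higher (4 and 1 at an unadjusted p below 0.05), where 1.04% and 2.55% of all probe sets were, with a median of 0.03. Unadjusted, 13.7% of all probe sets passed in AOX against control, in either direction. ADH4 stood at -0.01 in the same comparison, and ADH1 and ADH3 at -0.02 and -0.08. In NOX against control ZRT2 fell by 0.35 and IZH4, a membrane protein of zinc homeostasis, rose by 0.89, with 1 lower and 1 higher of 15, beside 0.909% and 2.8% of all probe sets. Most of the lower calls in AOX did not hold when an AOX or a control array was left out. Those fits called fewer of all probe sets. The lower call in NOX did not hold with only the NOX and control arrays, where 2.02% of all probe sets were called. Nor did that call hold with the replicate number as a block in the fit, where 1.44% were called. It was also lost when a control array was left out, and the higher call without control replicate 2, in fits that called far fewer. More targets passed in NOX when a NOX array was left out, in fits that called more of all probe sets.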

How the data were processed

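Biotin-labelled RNA was read on Affymetrix Yeast Genome 2.0 arrays, per the labels' protocols. The authors deposited linear probe set intensities, 1 column for each array. Which program summarised them was not stated in the sources used here. Titles gave the strains. Of 10928 probe sets, 5498 matched 1 S. cerevisiae gene (names updated to R64) and were tested, 1747 named ones of another organism gave the background, and 3683 were left out. Array medians of log2(intensity + 16) differed by 0.204, above a set limit of 0.1, so quantile normalization over all probe sets was applied.

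The tests used limma 3.58.1 in R 4.3.3, with 1 mean for each strain fitted to all 6 arrays (3 residual and 2.77 prior degrees of freedom) and Benjamini-Hochberg adjustment over 5498 probe sets at 0.05. Intervals are limma's. Lists used the brightest probe set per gene. The fit was tested on simulated data in which the 3 strains shared 1 spread per probe set. The uneven replicate differences of the real arrays were therefore not covered by that test. Named genes were the 7 members, called list genes, ADR1, CAT8, ZAP1, ZRT1, PDC1, ALD6 and ACS1, and the 5 nearest profiles of each called member; GIP2, GUT1, POT1 and SFA1 were added after their values were seen. The members and lists were chosen with earlier results of these data known. Alternatives covered normalization, pseudocounts, dim probe sets, the variance prior, the arrays fitted, a replicate block and the threshold. No coordinates are given, since no build is named for the annotation.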

Additional observations from a re-analysis of the deposited data

Results flagged for a closer look

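ADH2 was singled out because its changes in the 2 oxidase strains differed from each other. The direct test of AOX against NOX gave a log2 difference of -3.29 (limma adjusted p = 3.68e-05), and the changes against control ran in opposite directions, -1.31 in AOX and 1.98 in NOX, on both arrays of each strain. With 2 arrays a strain, single arrays were not screened for outliers.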

How the results depend on the processing

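ADH2 kept its direction and its call in all 3 comparisons under every alternative run. The share of all probe sets called in AOX against control was 3.58% with the variance trend and 6.62% with only the arrays of the 2 strains compared. In AOX against NOX that share was 8.95% with quantile normalization over S. cerevisiae probe sets, 8.89% with a pseudocount of 64 and 8.38% with the variance trend. The count of members called moved where others joined ADH2. With ADH6 it was 2 in AOX against control under a variance trend with robust priors and with only the arrays of the 2 strains compared, and 1 to 2 when single arrays were left out. In AOX against NOX it was 2, again with ADH6, under quantile normalization over S. cerevisiae probe sets only (chosen after seeing the data), a pseudocount of 64 and the variance trend, and 1 to 4 when single arrays were left out, the 4 being ADH2, ADH4, ADH6 and the dim ADH7 without NOX replicate 2, where 1467 probe sets (26.7%) were called. In NOX against control it was 1 to 3 when single arrays were left out, ADH3 and ADH4 joining without NOX replicate 2, where 1453 probe sets (26.4%) were called.

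Over all probe sets, limma called 204 in NOX against control, 197 in AOX against control and 461 in AOX against NOX. Leaving out single arrays gave 14 to 1453, 52 to 364 and 158 to 1467, with the lone array left in a strain taken to vary as the other strains do. Fitting only the 2 strains compared gave 111, 364 and 202, and a threshold of 0.01 gave 76, 115 and 195. With the replicate number as a block the counts were 79, 124 and 237, and ADH2 alone among the 7 genes was called in each comparison. The labels do not say that a replicate number marks a shared batch. Differences between replicates 1 and 2 correlated across probe sets by -0.60 between AOX and NOX, -0.21 between AOX and control and 0.12 between NOX and control, so the numbers were not taken as pairs. The 2 arrays of each strain limit all of these values, and ADH7 was too dim to be compared.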
